A study of Zea mays with 18 samples.

Results

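Leaf miRNAs of maize seedlings after 4 days at low phosphate were compared with leaf miRNAs of plants from the same course on days 0, 1 and 2. Every miRNA entry that reached 10 reads per 1000000 clean reads (RPM) in at least 1 of these 4 leaf libraries was taken, which gave 137 of the 207 entries measured at low phosphate. Names within a family whose values never differed were merged, so counts are over 101 distinct entries, 78 guide strands and 23 star strands, in 22 families. A star, written with an asterisk, is the partner strand cut from the other arm of a hairpin. Of these, 81 reached the minimum both on day 4 and on days 0 to 2, 16 reached it on day 4 alone and 4 on days 0 to 2 alone.

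The plants were the inbred line Q319, grown in nutrient solution, and each library came from a pool of 15 to 20 plants. The day 4 plants had spent 4 days in 5 μM KH2PO4 (low phosphate), with potassium chloride in place of the missing salt. The days 1 and 2 plants had spent that long in the same solution, and the day 0 plants came straight from 1000 μM KH2PO4 (sufficient phosphate). All 4 leaf libraries were labelled as the 3-leaf stage, while day 8 leaves were at the 4-leaf stage, and each day had 1 library per organ. At sufficient phosphate, leaves had 2 libraries on day 0 (3-leaf stage) and 2 on day 8 (4-leaf stage), with no day 4 library to separate days at low phosphate from days of growth.

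miRNAs are small RNAs cut from hairpin precursors that guide the silencing of matching messenger RNAs. In plants several families follow mineral supply: miR399 and miR827 are induced by phosphate shortage, miR395 by sulfate shortage, and miR397, miR398 and miR408 by copper shortage. Other families, such as miR156, miR160, miR166, miR169 and miR171, target transcription factors of growth and development.

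The leaf libraries held 12885000 clean reads on day 4 and 13500000, 13021000 and 15952000 on days 0, 1 and 2. A level of 3 reads then corresponds to 0.188 to 0.233 RPM. The 27.3 RPM of miR160a on day 4, for example, had an exact Poisson interval (95%) of 24.5 to 30.3 RPM; such intervals cover counting error only. Organ markers went with the labels: miR396f* lay between 19.8 and 34.1 RPM in the leaf libraries and was blank in 5 of 5 root libraries, and miR171g, miR319b, miR160a* and miR167b* were blank in 5 of 5 leaf libraries. A further pair of leaf-rich entries, miR166j at 212 to 456 RPM and miR156j at 905 to 2377 RPM in leaf, lay at 0.0935 to 1.23 RPM and 80.4 to 99.1 RPM in root.

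On day 4 most copper-associated entries in the leaf lay below each of days 0 to 2, with miR408 and miR408b above them, and a small group of rare miRNAs lay above those days. With a size rule of at least 2-fold against the mean of days 0 to 2 and a value outside their range, 13 of 101 entries were higher (12.9%) and 10 were lower (9.9%). The higher entries were 3 miR399, 4 miR395, 2 miR160, 2 miR169 star and 2 miR171 star entries, and none of them reached 100 RPM. The lower entries were 8 copper-associated ones, miR1432 and miR167j*. All 13 higher entries reached 10 RPM on day 4 alone, so the minimum favoured finding them higher. Over all 101 entries the median log2 difference was 0.25, with 65 over 0 and 36 under 0, and values below are best read against that shift.

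The median depended on the scale. Median-of-ratios scaling brought it to 0.04 with the same split of 13 higher and 10 lower, and scaling to the reads of all listed miRNAs raised it to 0.53 with 17 higher and 8 lower, or 68.0% higher against 56.5% as deposited. Across the 3 scales, 0 of the 23 called entries and 27 of the other entries changed sign. limma, which took its spread from days 0 to 2 and assumed that the lone day 4 library varies like them, gave 13 of 127 entries higher (10.2%) and 7 lower (5.51%) at an adjusted p under 0.05, with 31 at an unadjusted p under 0.05. Without leaf day 2 limma gave 7 higher and 1 lower, and under median-of-ratios scaling 6 higher and 7 lower. Of limma's 13 higher calls, 5 (miR399e, miR399i, miR399j, miR160a and miR169k*) met its minimum of 1 RPM in 2 libraries only through day 4, so no leaf p is given for these. These 5 are among the entries that passed both rules. Both rules used the same 4 libraries, so passing both was not separate support.

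**Figure D1:**
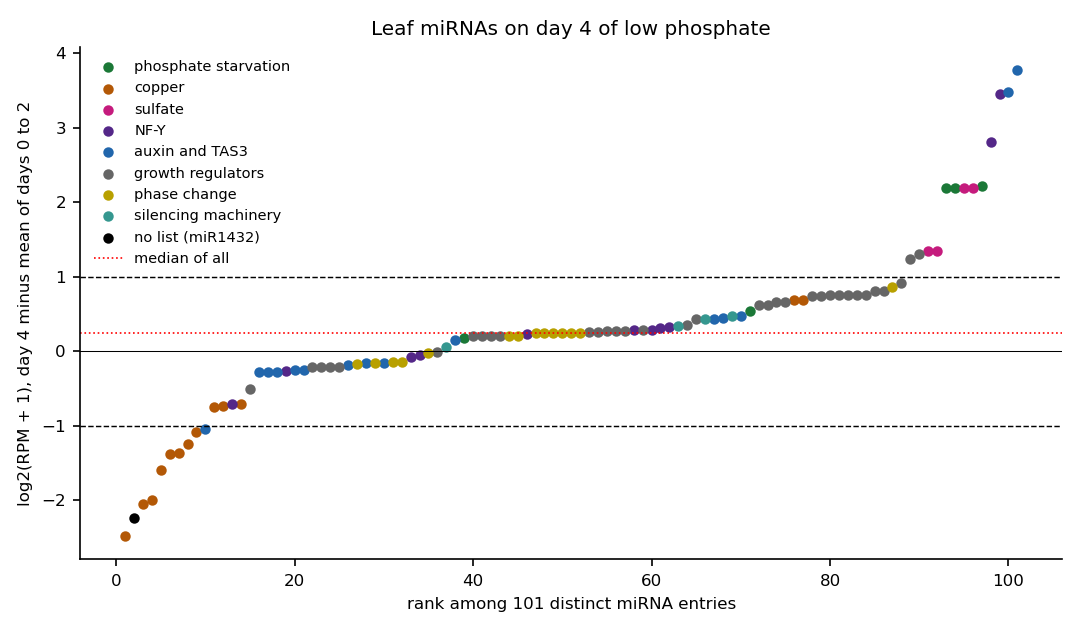
The 101 distinct entries in order of their day 4 difference in leaf (y axis: log2(RPM + 1) on day 4 minus that of the mean of days 0 to 2), with 1 point per entry, coloured by family list. Dashed lines mark 2-fold and the dotted line the median of 0.25; copper entries fill most of the low end, and phosphate, sulfate, miR160 and miR169 star entries the high end.

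Steps of 2-fold between neighbouring days, without the mean and range of days 0 to 2 that the size rule used, are set beside these counts. Among the same 101 entries, day 1 against day 0 gave 1 higher and 17 lower (0.99% and 16.8%). Many of the 17, of miR156, miR159 and miR164, share reads within a family and are not independent. Day 2 against day 1 gave 9 higher and 0 lower (8.91% and 0%). The step of day 4 against day 2 gave 22 higher and 8 lower (21.8% and 7.92%). Day 8 against day 4 gave 8 higher and 20 lower (7.92% and 19.8%). Of the 101 entries, 16 reached 10 RPM on day 4 alone, so the minimum favoured rises into day 4 and falls after it. Entries that reached 10 RPM only on day 8, such as miR399b*, were not counted. Between replicate pools of 1 group, the 2 sufficient-phosphate leaf libraries of a day were 2-fold apart for 4 of 88 entries on day 0 (4.55%) and for 4 of 94 on day 8 (4.26%).

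The phosphate-starvation families gave 3 of 5 entries higher and 0 lower, with a median log2 of 2.18, beside 12.9% higher over all 101 entries. The 3, all of miR399, share nearly all of their reads and reached 10 RPM on day 4 alone. The 3 calls and the median are thus not independent results. Under the minimum, miR399a, miR399b, miR399c*, miR399e* and miR399j* were blank on day 4. miR399 targets PHO2, a ubiquitin-conjugating enzyme that holds back phosphate uptake and transport. miR399e stood at 11.6 RPM on day 4, against 0.81 on day 0, a blank (under 1 RPM) on day 1 and 3.82 on day 2. The day 4 level lay above each earlier one, and day 2 already lay above days 0 and 1. With the blank set to 0.5 RPM, the difference of log2(RPM + 1) was 2.21, and the ratio of RPM values, with nothing added, was 6.75.

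miR399i and miR399j, which share nearly all of these reads, both had 11.3 RPM on day 4 and a log2 of 2.18. On day 8 miR399e reached 53.6 RPM. Among the entries under the minimum, miR399b* stood at 2.41 RPM on day 4, was listed at 0 reads on day 0, was blank on day 1 and stood at 1.07 RPM on day 2, and then reached 195 RPM on day 8.

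miR827, which targets SPX-domain phosphate transporters in grasses, was within the range of days 0 to 2. Its leaf level was 56.3 RPM on day 4, against 48.3, 42.7 and 58.2 RPM on days 0, 1 and 2, a log2 of 0.18 that turned to -0.05 under median-of-ratios scaling. miR827* stood at 38.9 RPM on day 4, above its 23.4, 26.0 and 30.2 RPM on days 0, 1 and 2, a log2 of 0.53 that passed neither rule (limma adjusted p = 0.378). By day 8, leaf miR827 stood at 816 RPM and miR827* at 351 RPM, so the large leaf level of this hairpin appeared after day 4.

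In root the same hairpin was already 2-fold up on day 4. Root miR827 had 61.0 RPM on day 4, against 16.1, 16.6 and 33.4 RPM on days 0, 1 and 2, a log2 of 1.43. The leaf-minus-root difference of miR827 was -1.32 (SE 0.60, limma adjusted p = 0.284), so the organs were not shown to differ.

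**Figure D2:**
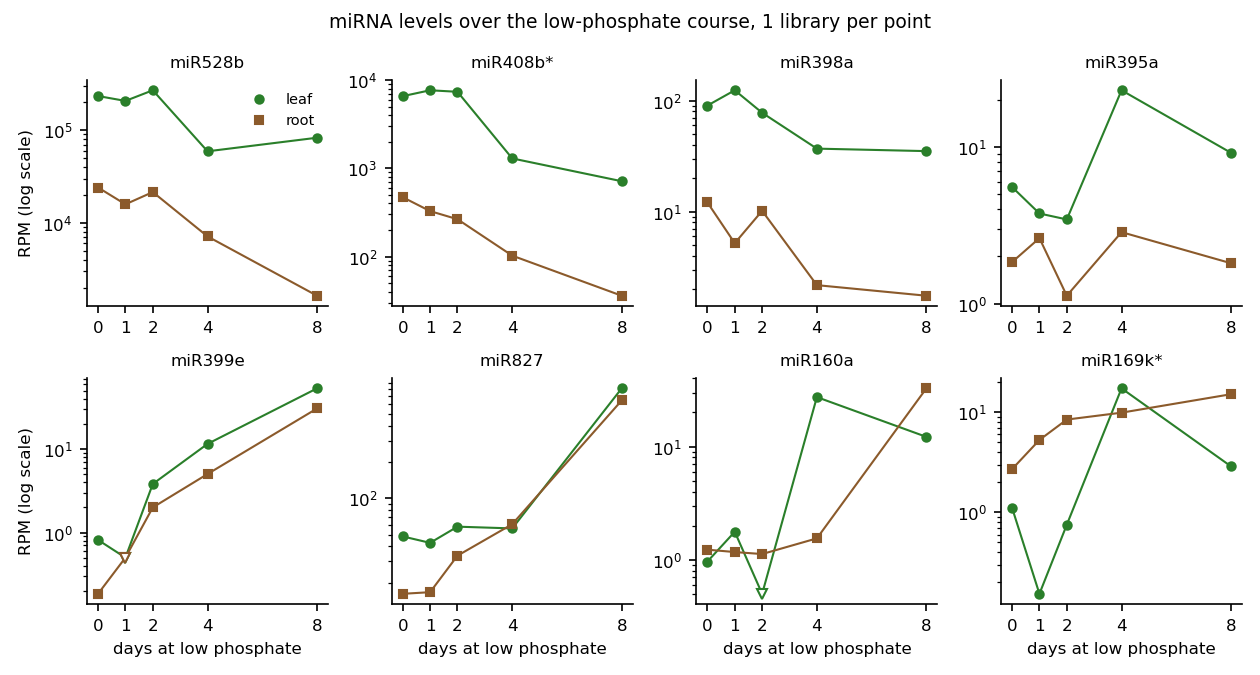
Levels of 8 entries over days 0 to 8 (x axis) in leaf (circles) and root (squares) on a log axis of RPM, 1 library per point; an open triangle stands for a blank drawn at 0.5 RPM. Leaf miR528b, miR408b* and miR398a lie lowest from day 4 on, leaf miR395a and miR169k* peak on day 4, and leaf miR827 stays at 42.7 to 58.2 RPM until day 4 before its 816 RPM on day 8.

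The sulfate family gave 4 of 4 distinct entries higher, standing for 16 names, beside 12.9% of all 101 entries. All 4 reached 10 RPM on day 4 alone, so the minimum favoured finding them higher. Under the minimum, miR395n* had 8.61 RPM on day 4, against 3.70, 3.53 and 4.51 RPM on days 0, 1 and 2. The guides miR395a and miR395e had equal values in all 4 libraries compared and differed only on other days, so the 4 are not independent. Counting entries equal in these 4 libraries once, which was added after seeing the data, gave 11 higher and 10 lower of 95. miR395 targets ATP sulfurylases, the first enzymes of sulfate assimilation, and sulfate transporters. miR395a, which stands for 7 names with the same values, had 23.1 RPM on day 4, against 5.56, 3.76 and 3.45 RPM on days 0, 1 and 2. Its ratio of RPM values to the mean of the earlier days was 5.42, outside their range (limma difference of log2(RPM + 1) 2.22, SE 0.39, adjusted p = 6.87e-06).

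The star strands of this family had smaller log2 values. miR395e* had 11.6 RPM on day 4, against 4.96, 2.69 and 4.26 RPM on days 0, 1 and 2, a log2 of 1.35 (limma adjusted p = 0.0111). Without leaf day 2 its limma adjusted p was 0.0573, and under median-of-ratios scaling it was 0.118. miR395b* had the same 11.6 RPM on day 4 and a log2 of 1.34, with a limma adjusted p of 0.0111 that became 0.193 under median-of-ratios scaling. The guide miR395e, at 23.1 RPM like miR395a, was 1.98 times its star on day 4 and 1.12, 1.40 and 0.81 times its star on days 0, 1 and 2.

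The 4 higher sulfate entries were lower again on day 8, at 9.18 RPM for miR395a, while miR395n* stood at 10.8 RPM, above its day 4 level. In root miR395a stood at 2.86 RPM on day 4, against 1.84, 2.62 and 1.12 RPM on days 0, 1 and 2, and the leaf-minus-root difference of 1.75 (SE 0.53) had a limma adjusted p of 0.092. Of the 137 names, 129 matched a hairpin gene in a RefSeq gene table. In that table (assembly Zm-B73-REFERENCE-NAM-5.0) MIR395d, MIR395f, MIR395g, MIR395e, MIR395i, MIR395h, MIR395b and MIR395a stood next to each other with no other gene between them, and all 8 had an entry here.

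The copper-associated families gave 8 of 13 entries lower and 0 higher, with a median log2 of -1.24. Of the 13, 11 lay below every value of days 0 to 2 and 2 lay above every one, where over all 101 entries 22.8% lay below and 43.6% above. Of the 8, 7 also passed limma. Many of these entries share reads within a family, so the 8 are not 8 independent results.

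miR528, a monocot miRNA that targets laccases in maize and an ascorbate oxidase in rice, was the most abundant leaf miRNA on each of days 0 to 2. On day 4 it stood behind miR156d, miR156a and miR168a. miR528b stood at 59138 RPM on day 4, against 233652, 206981 and 269681 RPM on days 0, 1 and 2, so that its share of clean reads was 5.91% on day 4 against 23.4, 20.7 and 27.0%. It fell by 2.00 on the log2 scale, or 4.00-fold (limma SE 0.59, adjusted p = 0.0111), and miR528a, which shares most of its reads, fell by 2.05. Leaving out leaf day 2 raised the limma adjusted p of miR528b to 0.318 and that of miR528a to 0.247. On day 8 miR528b stood at 82906 RPM, still below each of days 0 to 2.

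The miR528 stars did not pass. miR528a* had 10.2 RPM on day 4, against 13.6, 21.1 and 18.4 RPM on days 0, 1 and 2, a log2 of -0.74 (limma adjusted p = 0.234). The guide of this hairpin was 4697 times its star on day 4 and 14433, 7977 and 12452 times on days 0, 1 and 2.

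miR408 targets plantacyanins and laccases, and its hairpin gave opposite values for its arms. The star miR408b* had 1298 RPM on day 4, against 6599, 7697 and 7396 RPM on days 0, 1 and 2, the lowest log2 of all entries at -2.48, or 5.57-fold lower (limma SE 0.43, adjusted p = 6.36e-06). The guide miR408b had 179.6 RPM on day 4, against 68.1, 125.6 and 139.1 RPM on days 0, 1 and 2, a log2 of 0.69 that passed neither rule (limma adjusted p = 0.234). miR408, which shares its reads, had 179.6 RPM and a log2 of 0.69 as well.

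Guide over star within a library needs no scaling, and for miR408b it was 0.138 on day 4, against 0.0103, 0.0163 and 0.0188 on days 0, 1 and 2. The day 4 ratio lay far above all 3 earlier ones and was 0.143 on day 8. In root the guide went the other way, with 7.49 RPM on day 4, against 33.9, 15.2 and 18.2 RPM on days 0, 1 and 2, a root log2 of -1.46. The leaf-minus-root difference of miR408b was 2.13 (SE 0.70), with a limma adjusted p of 0.107.

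miR397, which targets laccases, fell in both guide entries. miR397b had 107.7 RPM on day 4, against 333.0, 389.7 and 260.8 RPM on days 0, 1 and 2, a fall of 3.04-fold (log2 -1.60, limma SE 0.44, adjusted p = 0.00681). miR397a, at 12.8 RPM on day 4 against 30.5, 35.4 and 29.02 RPM on days 0, 1 and 2, had a log2 of -1.24 (limma adjusted p = 0.0153). Without leaf day 2 these adjusted p values were 0.0826 and 0.187.

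In this hairpin the star is the more abundant arm. miR397b* had 1102 RPM on day 4, below its 1930, 1671 and 1784 RPM on days 0, 1 and 2, but its log2 of -0.70 passed neither rule. Guide over star was 0.0978 on day 4 and 0.173, 0.233 and 0.146 on days 0, 1 and 2.

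miR398 targets copper/zinc superoxide dismutases. miR398a had 36.9 RPM on day 4, against 90.0, 123.6 and 77.5 RPM on days 0, 1 and 2, and fell by 1.37 on the log2 scale (limma SE 0.40, adjusted p = 0.0111, and 0.0904 without leaf day 2). miR398b, which shares these reads, had the same 36.9 RPM and a log2 of -1.37. miR398b* had 21.7 RPM on day 4, against 59.1, 38.8 and 43.4 RPM on days 0, 1 and 2, a log2 of -1.08 with a limma adjusted p of 0.0735.

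**Figure D3:**
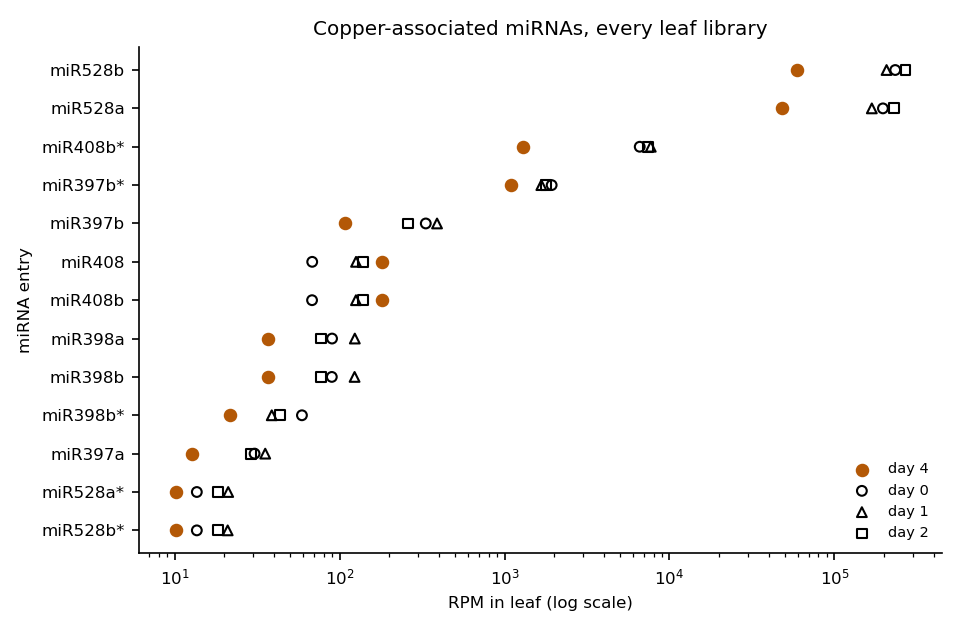
The 13 copper-associated entries (rows) in the leaf libraries of day 4 (filled circles) and of days 0, 1 and 2 (open circles, triangles and squares), on a log axis of RPM. Day 4 lies left of every earlier day for 11 entries and right of them for miR408 and miR408b, at 179.6 RPM each.

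Lists of families that target transcription factors or auxin receptors were called about as often as all entries or less. The size rule called 20.0% of the auxin and TAS3 list and 18.2% of the NF-Y list, beside 22.8% of all 101 entries. In the auxin and TAS3 list (miR160, miR167, miR390 and miR393) 2 of 15 entries were higher and 1 lower, with a median log2 of -0.16. In the NF-Y list (miR169) 2 of 11 were higher and 0 lower, with a median of 0.28.

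miR160 targets auxin response factors that repress auxin-induced genes. miR160a, which stands for 3 names, had 27.3 RPM on day 4, against 0.963 RPM on day 0, 1.77 RPM on day 1 and a blank on day 2. With the blank set to 0.5 RPM, its difference of log2(RPM + 1), 3.77, was the highest of all entries, and the ratio of RPM values was 25.4. The log2 difference depended on what was added to each value, at 4.54 with 0.1 RPM and 2.41 with 5 RPM. miR160d, which also stands for 3 names, had 28.6 RPM on day 4 and a log2 of 3.48. On days 0, 1 and 2 it had 1.63, 2.23 and 1.13 RPM. Both miR160 entries reached 10 RPM on day 4 alone, so the minimum favoured finding them higher. Day 8 levels were 12.2 and 15.1 RPM.

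The star of this family did not follow. miR160b*, which also stands for miR160g*, had 3.10 RPM on day 4, against 6.00, 3.23 and 8.21 RPM on days 0, 1 and 2, and so stayed under the 10 RPM minimum. Guide over star for miR160g was 9.23 on day 4 and 0.272, 0.690 and 0.137 on days 0, 1 and 2. The guide was thus the rarer arm on each of days 0 to 2 and the more abundant arm on day 4.

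miR169 targets NF-YA transcription factors, and here 2 stars met the size rule while their guides passed neither rule. miR169k* had 17.3 RPM on day 4, against 1.11, 0.154 and 0.752 RPM on days 0, 1 and 2, a log2 of 3.45. miR169i* had 20.4 RPM on day 4, against 2.22, 1.92 and 2.01 RPM on days 0, 1 and 2, a log2 of 2.81. Both stars reached 10 RPM on day 4 alone, so the minimum favoured finding them higher. The guides miR169i and miR169k both had 10.7 RPM on day 4, with log2 values of 0.29 and 0.28.

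Guide over star for miR169i was 0.525 on day 4, against 4.23, 4.40 and 3.94 on days 0, 1 and 2. For miR169k it was 0.619 on day 4, against 8.60, 55.0 and 10.5 on those days. The more abundant arm on day 4 was thus the star in both hairpins, and the guide on each earlier day. By day 8 the stars were back at 4.09 RPM (miR169i*) and 2.88 RPM (miR169k*). At the low end of the list, miR169a had 12.5 RPM on day 4, against 28.1, 18.5 and 16.6 RPM on days 0, 1 and 2, a log2 of -0.71 that passed neither rule, and miR169b had -0.27.

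Sufficient-phosphate leaves of day 0 carry the same organ and stage labels as low-phosphate day 0. The plants of that day also came straight from 1000 μM KH2PO4, so the phosphate supply was the same. For these entries the sufficient-phosphate leaves stood with day 4 instead. Levels were set side by side per 1000000 reads of the miRNAs listed in both tables, which the authors scaled separately. On that scale miR160a had 28.1 on low-phosphate day 4 and 0.693 on low-phosphate day 0, and the 2 sufficient-phosphate day 0 pools had 28.2 and 22.97. Low-phosphate day 0 was thus 36.9 times below those pools.

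The star miR169k* had 17.8 on low-phosphate day 4, 0.799 on low-phosphate day 0, and 18.9 and 15.8 in the sufficient-phosphate day 0 pools. miR169i* likewise had 20.96, 1.60, and 19.4 and 15.5 in the same order. Guide over star in those pools was 5.32 and 3.17 for miR160g, 0.665 and 0.838 for miR169i, and 0.689 and 0.822 for miR169k, on the side of day 4 for all 3 hairpins. The miR528a ratio did the same, at 4697 on low-phosphate day 4 and 14433, 7977 and 12452 on low-phosphate days 0, 1 and 2, with 3335 and 5099 in those pools. For miR160a, miR169i* and miR169k* low-phosphate day 0 lay below both day 4 and those pools, and what set these levels was not tested.

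For the levels of miR395a, miR528b and miR408b* the day 0 libraries of both tables lay on the same side of day 4. miR395a had 23.7 on low-phosphate day 4, 4.00 on low-phosphate day 0, and 1.17 and 0.313 in the sufficient-phosphate day 0 pools. miR528b had 60731 on low-phosphate day 4, 168034 on low-phosphate day 0, and 214248 and 225977 in those pools. miR408b* had 1333, 4746, and 4512 and 4026 in the same order.

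The guide miR408b was mixed, at 184.4 on low-phosphate day 4, 49.0 on low-phosphate day 0, and 329 and 332 in the sufficient-phosphate day 0 pools. Its guide over star ratio in those pools was 0.0729 and 0.0821, below the day 4 ratio of 0.138 and above the ratios of days 0 to 2. Over the 13 higher entries on this scale, 9 were at least 2-fold above the sufficient-phosphate day 0 mean on day 4 and 0 below it, while low-phosphate day 0 was already 2-fold above that mean for 5 and below it for 4. Over the 10 lower entries, 8 were at least 2-fold below that mean on day 4 and 0 above it, and low-phosphate day 0 was below it for 2 and above it for 1. Of 77 entries not called, 10 were 2-fold above that mean on day 4 and 2 below it. The called entries were chosen on these same day 4 values, which favoured the day 4 counts above. Many of them also share reads, so the counts are not separate support.

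**Figure D4:**
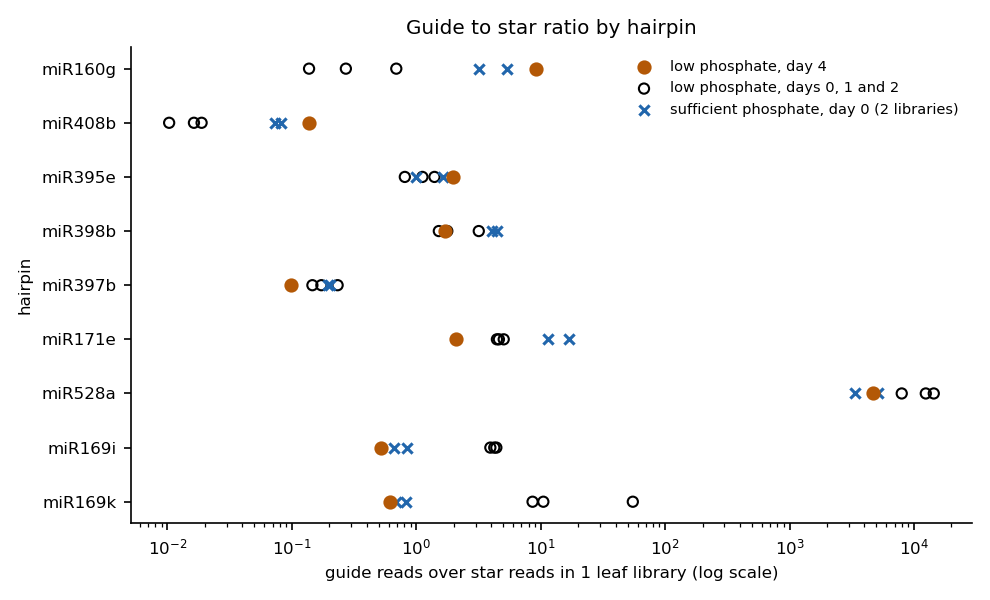
Guide reads over star reads for 9 hairpins (rows) on a log axis, 1 point per leaf library: low-phosphate day 4 (filled circles), low-phosphate days 0, 1 and 2 (open circles) and the 2 sufficient-phosphate day 0 pools (crosses). For miR160g, miR169i, miR169k and miR528a day 4 lies beside the crosses and apart from the open circles.

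Counting pairs whose arms both reached the minimum, with equal ratios taken once, 25 hairpins gave a guide over star ratio. On day 4 the ratio lay above all of days 0 to 2 for 9, below all of them for 10 and within their range for 6. It was at least 2-fold above the mean of their log2 ratios for 1 hairpin, miR408b, and at least 2-fold below it for 6, of miR169, miR171 and miR528. The stars miR169i*, miR169k*, miR171d* and miR171e* reached 10 RPM on day 4 alone, so the minimum favoured lower ratios for their hairpins. It also left out miR160g, whose star stayed under 10 RPM and whose ratio rose. Entries of miR528 share most of their reads, so the 6 are not independent.

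The growth-regulator list (miR159, miR164, miR166, miR171, miR319 and miR396) gave 2 of 34 entries higher and 0 lower, with a median log2 of 0.39. Both were stars of miR171, a family that targets GRAS-domain SCL factors. They reached 10 RPM on day 4 alone, so the minimum favoured finding them higher. miR171e* had 12.2 RPM on day 4, against 3.63, 5.38 and 4.07 RPM on days 0, 1 and 2, a log2 of 1.30 (limma adjusted p = 0.0115, but 0.103 under median-of-ratios scaling). miR171d*, a close relative, had 10.3 RPM on day 4 and a log2 of 1.24 (limma adjusted p = 0.0217). Without leaf day 0 or leaf day 2 the limma adjusted p was 0.066 and 0.0904 for miR171e* and 0.127 and 0.138 for miR171d*. Guide over star for miR171e was 2.07 on day 4 and 4.61, 5.04 and 4.45 on days 0, 1 and 2, while the sufficient-phosphate day 0 pools had 11.5 and 17.

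miR166, which targets HD-ZIP III factors that pattern the leaf, gave 0 of 11 guides past either rule. Of these guides, 11 of 11 lay above every value of days 0 to 2, as 43.6% of all 101 entries did. miR166a had 7292 RPM on day 4, against 4452, 5193 and 3333 RPM on days 0, 1 and 2, a log2 of 0.75 (limma adjusted p = 0.234). The 11 guides had log2 values of 0.66 to 0.81, which became 0.44 to 0.59 under median-of-ratios scaling and 0.89 to 1.03 when scaled to listed reads. Most of these guides share reads, and their root median was -0.15.

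miR396 targets growth-regulating factors, and miR396e had the highest log2 of the entries that passed neither rule. It had 21.4 RPM on day 4, against 11.2, 10.8 and 10.8 RPM on days 0, 1 and 2, a log2 of 0.91 (limma adjusted p = 0.123). The lowest value of the list was that of miR164e, of a family that targets NAC factors, at 4419 RPM on day 4 against 7293, 5969 and 5621 RPM on days 0, 1 and 2, a log2 of -0.51.

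In the phase-change list miR156 targets SPL factors and miR172 targets AP2-like factors. This list gave 0 of 14 entries past the size rule, with a median log2 of 0.22. miR156a had 76669 RPM on day 4, against 91598, 40900 and 61582 RPM on days 0, 1 and 2, so day 4 lay inside the earlier range. miR156d had 93918 RPM on day 4, against 108767, 57112 and 78842 RPM on days 0, 1 and 2, a log2 of 0.20 that turned to -0.01 under median-of-ratios scaling. miR156j had 2377 RPM on day 4, above its 1770, 905 and 1249 RPM on days 0, 1 and 2, with a log2 of 0.86. It passed the size rule when scaled to listed reads or without leaf day 0. miR172a had 201.9 RPM on day 4, against 209.5, 249.7 and 208.1 RPM on days 0, 1 and 2, and 496.9 RPM on day 8.

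The silencing-machinery list gave 0 of 4 entries past either rule. miR168a, which targets the slicer AGO1 and was among the most abundant entries, had 62547 RPM on day 4, against 55245, 61006 and 64462 RPM on days 0, 1 and 2. miR162, which targets DCL1, had 18.6 RPM on day 4, against 13.2, 12.98 and 14.4 RPM on days 0, 1 and 2, with a log2 of 0.43.

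In the rest of the auxin and TAS3 list, miR167, which targets auxin response factors, gave guides at log2 values of -0.28 to -0.16, with 6 of 8 below every value of days 0 to 2, as 22.8% of all entries were. Scaled to listed reads, miR167a, miR167b, miR167g, miR167h and miR167i turned to 0.03 to 0.09. Its star miR167j* had 8.30 RPM on day 4, against 28.4, 10.9 and 15.5 RPM on days 0, 1 and 2, a log2 of -1.05 that met the size rule and had a limma adjusted p of 0.140. miR393a, of the family that targets TIR1-type auxin receptors, had a log2 of 0.48 and miR390a, which triggers TAS3 small RNAs, one of 0.45.

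Outside the lists, miR1432, which in rice targets an acyl-CoA thioesterase, met the size rule but not limma. It had 8.46 RPM on day 4, against 58.4, 14.6 and 57.8 RPM on days 0, 1 and 2, a log2 of -2.24 (limma SE 0.90, adjusted p = 0.237). The day 1 level lay nearer to day 4 than to days 0 and 2. Whether limma called miR1432 depended on the trended and robust options and on whether leaf day 1 was kept. Without leaf day 1 the log2 was -2.64, with only the close values of days 0 and 2 to give the spread. Per 1000000 listed reads it had 8.69 on low-phosphate day 4 and 42.0 on low-phosphate day 0, against 6.14 and 6.95 in the sufficient-phosphate day 0 pools, so here too day 4 stood with those pools.

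Leaf and root were compared at day 4 to see where the shift was shared. Root day 4 against root days 0 to 2, over the same 101 entries, gave 5 higher (4.95%) and 9 lower (8.91%), with a median log2 of -0.12. Of the 13 entries higher in leaf, 3 were higher in root and 10 passed in neither direction there. Among the 10, miR171d* and miR171e* were blank in every low-phosphate root library and so could not pass. The 101 entries were chosen on leaf levels alone, and all 13 reached 10 RPM on leaf day 4 alone. Leaf and root counts are therefore not on equal terms. Of the 10 lower in leaf, 6 were lower in root and 4 passed in neither direction. The 3 were the miR399 entries, with a root log2 of 1.67 each, and the 6 were miR528a, miR528b, miR408b*, miR397b, miR398a and miR398b.

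Copper entries had median log2 values of -1.24 in leaf and -1.46 in root. Root miR528b had 7129 RPM on day 4, against 24046, 15842 and 21476 RPM on days 0, 1 and 2, a log2 of -1.52. Its leaf-minus-root difference was -0.49 (SE 0.54, limma adjusted p = 0.715), and that of miR399e was 0.62 (SE 0.95, adjusted p = 0.842).

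An interaction over both organs tested whether the day 4 difference differed between them, and 3 of 144 entries passed higher in leaf (2.08%) and 0 lower (0%), with 25 at an unadjusted p under 0.05. miR160a differed by 3.59 (SE 0.45, limma adjusted p = 0.00115) and miR160d by 3.26 (SE 0.43, limma adjusted p = 0.00115). Root miR160a had 1.54 RPM on day 4, against 1.23, 1.17 and 1.12 RPM on days 0, 1 and 2, and 32.6 RPM on day 8. Root miR160 thus lay near 1 RPM until day 4 and higher on day 8, while leaf miR160a had 27.3 RPM on day 4. The sufficient-phosphate day 0 leaf pools already stood near leaf day 4, and sufficient-phosphate root was not used. No order in time between the organs is therefore shown.

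miR169i* differed by 2.28 (SE 0.50, limma adjusted p = 0.0447). It had 12.1 RPM in root on day 4, against 5.34, 9.35 and 10.4 RPM on root days 0, 1 and 2. This call ended without leaf day 0, 1 or 2 (limma adjusted p of 0.164, 0.131 and 0.220) and without root day 1 or 2 (0.0918 and 0.119). Both miR160 entries kept a limma adjusted p under 0.05 with any of these libraries left out. miR169k* had a difference of 2.64 with a limma adjusted p of 0.092.

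**Figure D5:**
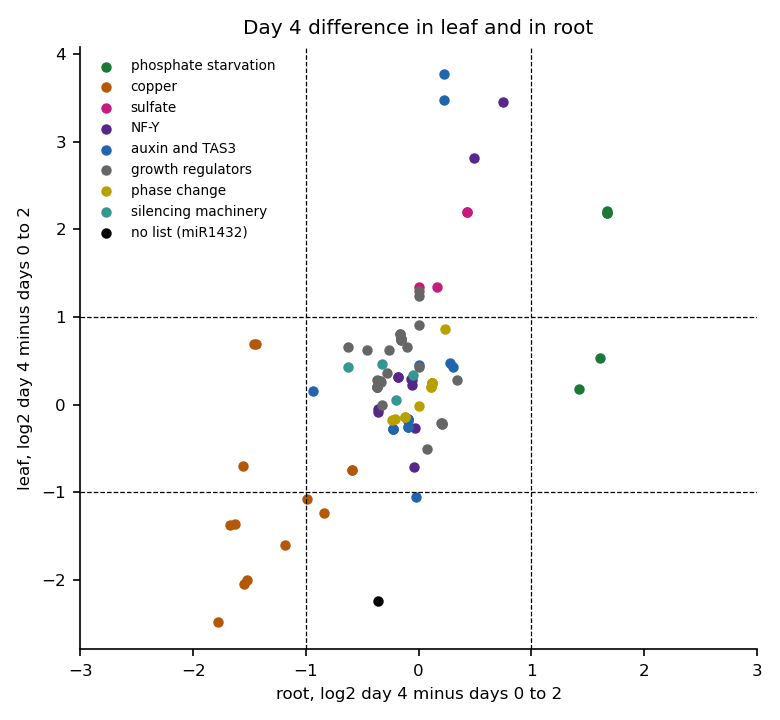
Day 4 difference of the 101 distinct entries in leaf (y axis) against root (x axis), both as log2(RPM + 1) on day 4 minus that of the mean of days 0 to 2 of the same organ, coloured by list, with dashed lines at 2-fold. Copper entries lie low in both organs except miR408 and miR408b, miR399 entries lie high in both, and miR160, miR169 star and miR395 entries lie high in leaf.

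Day 8 against the same days 0 to 2 shares its baseline with day 4, so the values are given side by side and not as a repeat. Copper entries had median log2 values of -1.24 on day 4 and -1.94 on day 8, and the phosphate list 2.18 and 4.25. The sulfate list had 1.77 on day 4 and 0.97 on day 8, and the 2 miR171 stars 1.27 and -0.65.

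At the 10 RPM limit, the entries just inside were miR168a* at a highest level of 10.1 RPM, miR171d* at 10.3, miR168b* at 10.4 and miR169i and miR169k at 10.7. Just outside were miR395n* at 8.61 RPM, miR529 at 8.22, miR160b* at 8.21, miR166a* at 5.96 and miR156l* at 5.43. Of the 70 entries under the limit, 18 were blank in all 4 leaf libraries.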

How the data were processed

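Small RNA of maize leaves and roots was sequenced on HiSeq as 50 nt tags and cleaned, per the labels and the series' design text. Neither an aligner nor a miRNA release or genome build is given in the sources read. For low phosphate the authors deposited a signal, each entry's count over total clean reads times 1000000 (RPM); entries share reads. For sufficient phosphate the deposited values are a count per library. Deposited fold, p and mark columns were not used, nor were 4 root count columns.

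A deposited 0.01 was read as 0 reads and blanks (under 1 RPM) were set to 0.5. The steps of low values gave the depths (100% whole within 0.03 reads). In 13 root day 1 cells that repeat day 0 with no fold, values were treated as blank. Differences are of log2(RPM + 1), which understates changes of rare entries. limma 3.58.1 in R 4.3.3 (trended, robust, at least 1 RPM in at least 2 libraries, Benjamini-Hochberg adjusted p at 0.05 over all entries tested) had 2 residual degrees of freedom in leaf and 4 in the leaf and root fit. The spread of days 0 to 2 holds both differences between pools and change over those days, and p-values rest on it. Both rules were tested on simulated data. The limma simulation drew independent entries with large changes, so it does not show how limma does on entries that share reads. Other values came from Python 3.11.15 with pandas 2.3.3.

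Members, family lists and organ markers were chosen with earlier results of these data known. Named are the 10 highest and 10 lowest log2 values among called entries, all phosphate and copper members, the 10 most abundant entries, the 2 highest and 2 lowest of every other list, and the entries at the limit, with near-identical entries named for one another. Some other entries were named after their values were seen. Sequences and coordinates are not given here.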

Additional observations from a re-analysis of the deposited data

Results flagged for a closer look

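For 3 entries the day 4 difference against days 0 to 2 differed between leaf and root by the limma interaction test. The leaf-minus-root difference was 3.59 for miR160a, 3.26 for miR160d and 2.28 for miR169i*, on the log2 scale. miR160a had 27.3 RPM in leaf and 1.54 RPM in root on day 4, and miR160d had 28.6 and 1.72 RPM. miR169i* had 20.4 RPM in leaf and 12.1 RPM in root on day 4. For all 3, sufficient-phosphate leaves of day 0 lay near low-phosphate day 4 and not near low-phosphate day 0, which had the same phosphate supply. What set the low levels of days 0 to 2 was not tested.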

How the results depend on the processing

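Each low-phosphate day had 1 library per organ, so days at low phosphate, growth and library cannot be told apart. Higher size calls (13) numbered 0 at a minimum of 100 RPM, 30 at a fold of 1.5 and 29 with every entry counted, and lower calls (10) numbered 6 at a minimum of 100 RPM and 5 at a fold of 3; their other alternatives stayed within 1.5 times. Leaving out 1 of days 0 to 2 gave 13 to 15 higher and 8 to 10 lower. limma's 13 higher calls became 6 under median-of-ratios scaling, and leaving out a day gave 7 to 15 higher and 1 to 10 lower, the lowest of both without leaf day 2, where miR408b* was the 1 lower call. The interaction gave 2 or 3 higher and 0 lower under other pseudocounts, minimums, scalings and fits, and with a library of days 0 to 2 left out, which was added after seeing the data. The 4 entries 2-fold apart between sufficient-phosphate pools on day 0 became 0 under median-of-ratios scaling. Over 9 settings all 23 called entries kept their sign and 17 kept the size call in each; miR167j* and miR398b* lost it in 4 settings each, and miR171d*, miR171e*, miR395b* and miR395e* with a pseudocount of 5. The causes were not tested. edgeR on whole reads was planned and not run. Pairing leaf and root libraries of the same day as a replicate block, chosen after seeing the data, left 2 residual degrees of freedom and gave 8 higher and 0 lower interaction calls in limma against 3 and 0 without it: both miR160 entries, miR167g*, miR169i*, miR169k*, miR390a*, miR408 and miR408b. Deviations of leaf and root from their means of days 0 to 2 did not go together on every day (r over 144 entries of -0.18, -0.28 and 0.28 on days 0, 1 and 2), so the days were not taken to pair the libraries.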
